A study of Mus musculus with 3 samples.

Results

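The cells described here are epithelial cells of nitrogen mustard-injured mouse cornea and limbus with high counts of small proline-rich protein (Sprr) genes. They were picked by a fixed rule from 1 losartan and 1 saline library. A barcode had to hold at least 5000 UMIs (unique molecular identifiers, each counting 1 captured RNA molecule) and at most 20% mitochondrial UMIs. The keratins Krt5, Krt14 and Krt12 had to sum to at least 100 per 10000 UMIs, and Sprr1a, Sprr1b, Sprr2d, Sprr2f and Sprr2h to at least 20 per 10000. Barcodes with more than 1 UMI of Gpha2, a limbal stem cell marker, or with UMIs of more than 2 of 7 cell cycle genes were left out. The rule kept 457 of 5887 barcodes in the losartan library and 170 of 6814 in the saline library, 627 of 12701 together. They are called Sprr-high cells below, and the cells that met every other condition but stayed under the Sprr threshold are called Sprr-low cells (543 losartan and 90 saline cells).

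The series holds 1 droplet single-cell library from each of 3 wild-type mice. In the order used here these are nitrogen mustard (NM) injury with losartan, NM injury with saline, and no injury. NM alkylates and crosslinks DNA and blisters exposed surfaces, and losartan is an angiotensin receptor blocker taken against high blood pressure. How long after injury the eyes were taken, and the dose and route of losartan, are details not stated in the sources used here. The labels describe whole eyes from which the lens, retina and iris were taken out and most conjunctiva discarded before enzymatic digestion. Each group is 1 mouse and 1 library, so animal, dissociation and treatment cannot be told apart, no test across animals was possible, and every interval below covers counting error only.

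Sprr proteins are short, proline- and glutamine-rich precursors that transglutaminases crosslink into the cornified envelope, the protein shell under the membrane of maturing keratinocytes. Their genes lie side by side in the epidermal differentiation complex on mouse chromosome 3. Moist stratified epithelia such as the cornea keep them low at rest and raise them under wounding, drying, inflammation or squamous metaplasia. Krt16 is a keratin of wounded and hyperproliferative epithelium, Krt19 is a keratin of simple and conjunctival epithelium, Ecm1 is a secreted protein of differentiating keratinocytes, and Krt12 is the keratin of corneal epithelium.

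The stretches upstream of the 5 Sprr genes are shown because their summed counts define the cells and because the 5 genes lie within one cluster. Each is the 250 bases before the RefSeq transcription start on GRCm38.p6, written on the strand of the gene, 5′ to 3′. Sprr1a has chr3:92485882-92486131 on the minus strand and Sprr1b has chr3:92438780-92439029 on the minus strand. Sprr2d has chr3:92338890-92339139, Sprr2f has chr3:92364937-92365186 and Sprr2h has chr3:92385435-92385684, all on the plus strand. Capitals mark TGANTCA, where N is any base, and TATAAA on the strand of the gene. TGANTCA is a loose pattern that takes in the site bound by AP-1 factors. The pattern is its own reverse complement, so a match counts for both strands.
Sprr1a: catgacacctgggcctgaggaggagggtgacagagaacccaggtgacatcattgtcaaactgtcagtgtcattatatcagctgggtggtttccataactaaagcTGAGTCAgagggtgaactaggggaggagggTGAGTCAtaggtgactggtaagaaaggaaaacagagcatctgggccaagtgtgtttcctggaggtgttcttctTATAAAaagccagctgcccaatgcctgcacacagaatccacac
Sprr1b: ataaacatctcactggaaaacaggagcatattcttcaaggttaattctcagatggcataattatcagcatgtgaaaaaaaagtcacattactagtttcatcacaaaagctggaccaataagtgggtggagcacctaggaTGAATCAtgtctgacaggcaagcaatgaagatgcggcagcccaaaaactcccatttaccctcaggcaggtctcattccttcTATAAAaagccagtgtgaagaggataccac
Sprr2d: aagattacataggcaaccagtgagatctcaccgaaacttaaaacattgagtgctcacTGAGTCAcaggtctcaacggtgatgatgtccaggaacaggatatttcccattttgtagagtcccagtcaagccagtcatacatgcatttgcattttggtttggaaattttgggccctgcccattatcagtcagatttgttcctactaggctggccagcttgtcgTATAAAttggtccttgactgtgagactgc
Sprr2f: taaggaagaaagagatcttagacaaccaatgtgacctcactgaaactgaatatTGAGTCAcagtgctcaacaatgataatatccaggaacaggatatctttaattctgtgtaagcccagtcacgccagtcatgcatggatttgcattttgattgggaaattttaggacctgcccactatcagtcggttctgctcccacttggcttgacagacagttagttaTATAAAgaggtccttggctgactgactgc
Sprr2h: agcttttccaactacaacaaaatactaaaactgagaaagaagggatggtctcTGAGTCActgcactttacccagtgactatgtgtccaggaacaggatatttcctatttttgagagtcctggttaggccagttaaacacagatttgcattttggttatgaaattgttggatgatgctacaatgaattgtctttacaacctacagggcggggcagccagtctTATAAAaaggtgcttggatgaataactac
All 5 windows held TGANTCA. It began 146 and 116 bases before the start in Sprr1a, 111 in Sprr1b, 193 in Sprr2d, 197 in Sprr2f and 198 in Sprr2h, and TATAAA began 29 to 43 bases before the start in all 5. The match in Sprr1b read TGAATCA, and those in Sprr1a, Sprr2d, Sprr2f and Sprr2h read TGAGTCA. No match of one motif overlapped one of the other. Of the other Sprr genes with a window in the same table, 4 of 9 held TGANTCA, and of all 32851 windows of this length 2217 did (6.75%). TATAAA stood on the strand of the gene in 7.59% of all windows and on either strand in 12.4%. A match is a description of the letters and shows no binding.

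Sprr-high cells were deep in both libraries. They held 19851421 UMIs in the losartan library, with a median of 39483 per cell (5131 to 132908), and 10611756 UMIs in the saline library, with a median of 56767 (5282 to 201739). The median number of detected genes was 5169 in losartan and 6208 in saline cells. The losartan and saline libraries shared 7 barcodes, and no Sprr-high barcode was shared. All 8 epithelial markers (Krt5, Krt14, Krt12, Epcam, Cdh1, Perp, Dsp and Trp63) reached 10 CPM. The marker genes of leukocytes of any kind (Ptprc, Tyrobp, Fcer1g, Laptm5, Coro1a and Lcp1) summed to 15.5 CPM (UMIs of a gene scaled to a total of 1000000) in losartan and 18.8 CPM in saline Sprr-high cells, with 0 of the 6 reaching 10 CPM. A simulated-doublet score marked 31 of the 457 losartan and 14 of the 170 saline cells, and at least 2 UMIs of Ptprc, Tyrobp, Fcer1g and Laptm5 together were found in 20 losartan cells (4.38%) and 21 saline cells (12.4%). These cells were kept. Of the label's markers, Sprr1a and Sprr2f are genes of the rule, so their detection in these cells is a description. Sprr1a, Krt16 and Ecm1 were found in nearly every cell. Krt19 and Sprr2f were found in 70.5% and 51.2% of losartan cells, against 94.7% and 83.5% of saline cells, which were deeper. Krt16 reached 1 per 10000 UMIs in 98.9% of losartan and 94.7% of saline Sprr-high cells, and in 86.4% and 67.8% of Sprr-low cells.

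Some of these UMIs can be free RNA, which droplets take up from the suspension. Neutrophil barcodes, which should lack epithelial transcripts, gave a measure of it: 1354 in the losartan library with a median of 2611.5 UMIs and 2376 in the saline library with a median of 3841. Sprr2f had a UMI in 3.32% and 8.21% of them, and Krt19 in 3.102% and 3.45%, in losartan and saline. Krt12 had 361 CPM in losartan and 25.1 CPM in saline neutrophil barcodes. In Sprr-high cells Krt12 had 18113 CPM in losartan and 6032 CPM in saline. Krt12 and Sprr2f are genes of the rule, so their higher level in these cells cannot show how much of their RNA is free. Krt19 is not a gene of the rule. With Sprr-high cells thinned to 5000 UMIs each, Krt19 had a UMI in 51.6% of losartan and 84.1% of saline cells. That depth is still above the medians of the neutrophil barcodes, and the part of free RNA was not tested.

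Marker lists of other cell types were summed in the same way. Neutrophil markers summed to 112 CPM in losartan and 240.1 CPM in saline Sprr-high cells, macrophage markers to 1868 and 3110 CPM (of which Arg1 gave 1815 and 3029.5 CPM), lid epidermis markers to 51.4 and 42.0 CPM, goblet markers to 4.38 and 4.71 CPM, endothelial markers to 4.58 and 5.65 CPM, melanocyte markers to 3.98 and 4.71 CPM and Schwann cell markers to 0.0504 and 0 CPM. Muc5b, Tff3, Sox10, Scn7a and Tyrp1 were at 0 in both.

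In the uninjured library the same rule found 20 of 6242 eligible cells, 0.320% (95% exact interval 0.196 to 0.494). Among eligible cells of the injured libraries, that is Sprr-high and Sprr-low cells together, Sprr-high cells made up 457 of 1000 in losartan (45.7%, 42.6 to 48.8) and 170 of 260 in saline (65.4%, 59.3 to 71.2). The size of this difference depended on the denominator. Of all keratin-positive cells, with cycling and Gpha2-positive ones included, Sprr-high cells were 33.5% of 1364 in losartan (31.0 to 36.1) and 33.8% of 503 in saline (29.7 to 38.1). In this share, cycling and Gpha2-positive cells counted as not Sprr-high whatever their Sprr level. Cells with UMIs of more than 2 cycle genes numbered 244 in losartan and 130 in saline, and cells with more than 1 Gpha2 UMI 120 and 113. Both exclusions are UMI counts not scaled to depth, and eligible cells were deeper in saline. The part of depth in these shares was not tested. The Sprr threshold cut a continuous range. The nearest cells inside and outside it had 20.06 and 19.94 Sprr UMIs per 10000 in losartan, 20.67 and 19.39 in saline.

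The summed Sprr count itself ran lower in losartan than in saline Sprr-high cells. Its median was 47.1 per 10000 UMIs in losartan (quartiles 29.8 and 87.9, highest 745) and 94.2 in saline (quartiles 46.4 and 178, highest 604). In losartan 57 of the 457 cells held 50% of all Sprr UMIs, and in saline 26 of the 170 did. More than 200 per 10000 were found in 21 losartan cells (4.60%) and 32 saline cells (18.8%). The rule used these counts, so they describe the cells and are no result on treatment.

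**Figure D1:**
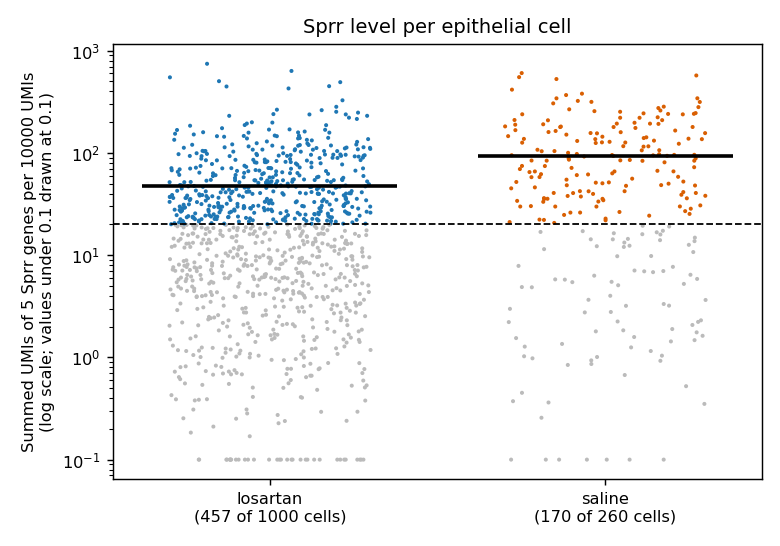
Summed UMIs of the 5 Sprr genes per 10000 UMIs (log axis, values under 0.1 drawn at 0.1) in each eligible cell of the losartan library (left) and the saline library (right), with Sprr-high cells in colour above the dashed threshold of 20, Sprr-low cells in grey and a bar at the median of the Sprr-high cells. The bars stand at 47.1 in losartan and 94.2 in saline, and the points run through the threshold without a gap.

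Sprr1a and Sprr1b are close paralogs, and Sprr2d, Sprr2f and Sprr2h belong to the larger Sprr2 subfamily. Sprr1a (chr3:92483952-92485895, minus strand, GENCODE M21 on GRCm38) carried 66.1% of the 5-gene UMIs in losartan and 59.1% in saline. It had 5409 CPM in losartan, 7463 CPM in saline Sprr-high cells and 83.1 CPM in eligible uninjured cells. Sprr1b (chr3:92436809-92438789, minus strand) had 1514 CPM in losartan and 1336 CPM in saline, 18.5% and 10.6% of the 5-gene UMIs. Sprr1a was thus the main Sprr transcript of both libraries, and Sprr1b was the one of the 5 that was not lower in losartan.

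Sprr2f (chr3:92365187-92366442, plus strand) is also one of the genes that picked the cells, so its levels are a description. It had 1049.6 CPM in losartan (95% interval 1035 to 1064) and 3438 CPM in saline (3403 to 3474). It was the leading Sprr gene in 21 losartan cells (4.60%, 2.87 to 6.94) and 33 saline cells (19.4%, 13.8 to 26.2), whereas Sprr1b led in 61 losartan cells (13.3%) and 8 saline cells (4.71%). A handful of cells carried most Sprr2f: 6 losartan and 12 saline cells held 50% of its UMIs. Sprr2d (chr3:92339140-92340873, plus strand) had 119 CPM in losartan and 263 CPM in saline, and 6 and 2 cells held 50% of it. Sprr2h (chr3:92385685-92387324, plus strand) had 90.1 CPM in losartan and 138 CPM in saline. Near-identical copies within the Sprr2 subfamily make the split of reads between its members uncertain. Of the other Sprr genes 3 were measured, and Sprr3, Sprr2a3 and Sprr2e had 10.7, 29.9 and 11.03 CPM in losartan, against 10.6, 36.8 and 10.8 CPM in saline. None of the 3 passed 1.5-fold.

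When cells were first sorted into 4 bands of summed Sprr count (20 to 50, 50 to 100, 100 to 200 and over 200 per 10000) and the log2 ratios of the bands averaged, Sprr1a differed by 0.07, Sprr1b by 0.72, Sprr2d by 0.04, Sprr2h by 0.07 and Sprr2f by −0.897. Sprr2f was lower in losartan in 3 of 4 bands, with 950.5 CPM in losartan and 4188 CPM in saline at 100 to 200, and at over 200 it stood at 10620.4 CPM in losartan and 10434 CPM in saline. Sprr1b was higher in losartan in all 4 bands. The bands are cut on the sum of these 5 genes, so that within a band a lower level of one goes with a higher level of others, and these values too are a description.

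Set against Sprr-low cells of the same library, Sprr-high cells held more transcripts of the cornified envelope, of wound keratins and of mucosal keratins, and fewer of the basal layer. The cells were split by their counts, so this is a description with no test. Of 7565 genes measured, 419 were at least 1.5-fold higher in both libraries (5.54%) and 1703 at least 1.5-fold lower in both (22.5%). The median over all measured genes was itself −0.28 (log2) in losartan and −0.40 in saline, and with the centre of all genes set to 0 by median-of-ratios scaling the counts were 756 and 913. Of 23 measured envelope and crosslinking genes 16 were higher in both and 0 lower, of 5 wound keratins 5 were higher, and of 9 simple and conjunctival keratins 8 were higher. Of 16 basal layer and hemidesmosome genes 13 were lower in both and 0 higher.

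The 8 genes ranked highest were Spink5, Ly6g6c, Krt13, Cnfn, Krt4, Nccrp1, Cst6 and Klk10. Spink5, an inhibitor of the proteases that shed the outer cells, had 1168 CPM in losartan Sprr-high and 199.5 CPM in losartan Sprr-low cells, and 1255 and 63.3 CPM in the same cells of saline. Krt13, which pairs with Krt4 in moist stratified epithelia, had 1598 and 313 CPM in losartan and 2469 and 216 CPM in saline. Cnfn, a cornified envelope protein, had 264 and 57.03 CPM in losartan and 183 and 4.92 CPM in saline. Ly6g6c, Krt4, Nccrp1, the protease inhibitor Cst6 and the kallikrein Klk10 were higher by 2.04 to 2.33 in losartan and by 2.04 to 3.596 in saline (log2).

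The 8 ranked lowest were Nrg1, Tns4, Itgb4, Antxr1, Ctps, Itga3, Cdh13 and Gja1. Itgb4, the integrin subunit of hemidesmosomes that anchor basal cells to the basement membrane, had 54.5 CPM in losartan Sprr-high and 329 CPM in losartan Sprr-low cells, and 56.7 and 588 CPM in the same cells of saline. Nrg1, a ligand of ErbB receptors, had 87.9 and 551 CPM in losartan and 29.3 and 573 CPM in saline. Itga3, the partner of another laminin receptor, had 18.03 and 111 CPM in losartan and 15.6 and 226 CPM in saline. Tns4, Antxr1, Ctps, Cdh13 and Gja1 differed by −2.52 to −2.18 in losartan and by −3.71 to −2.28 in saline (log2). Genes of the layer that rests on the basement membrane were thus lower in Sprr-high cells of both libraries. Their mitochondrial share was also lower than that of Sprr-low cells, with medians of 1.17% and 1.64% in losartan and 0.766% and 1.49% in saline. The part of RNA quality in these differences was not tested.

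**Figure D2:**
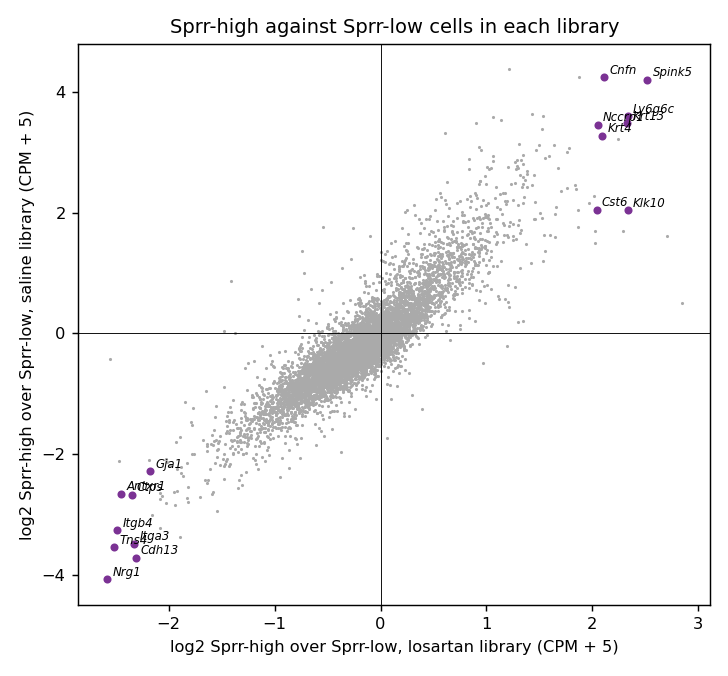
Log2 ratio of Sprr-high to Sprr-low cells (CPM + 5) in the losartan library (horizontal) and the saline library (vertical), with 1 grey point per measured gene and the 8 highest and 8 lowest ranked genes in purple with their names. Spink5 and Cnfn lie farthest to the upper right, Nrg1 farthest to the lower left.

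Between the libraries, the Sprr-high cells of losartan held more transcript of corneal identity genes and less of simple keratins, chemokines, antimicrobial proteins, interferon-stimulated genes and hypoxia genes than those of saline. Of 7102 genes with at least 10 CPM in 1 library, 155 were at least 1.5-fold higher in losartan on CPM + 5 (2.18%) and 420 at least 1.5-fold lower (5.91%), 575 in all (8.10%). The median log2 ratio over all measured genes was −0.08. Median-of-ratios scaling gave 210 higher and 325 lower, which is a share of 39.3% higher among the calls, against 27.0% without it. Cells of 20000 to 60000 UMIs gave 205 higher and 1072 lower, and cells thinned to 5000 UMIs each gave 448 and 937. The window also left fewer cells, 294 in losartan and 63 in saline. A minimum of 10000 UMIs gave 154 higher and 424 lower. The part of depth in these counts was not tested. Of the 155 higher genes, 104 were past 1.5-fold the same way in the mean of the 4 Sprr bands and 106 in Sprr-low cells. Of the 420 lower genes, 348 were past it in the mean of the bands and 183 in Sprr-low cells.

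Of the label's own markers, Krt19 and Ecm1 were at least 1.5-fold lower in losartan, and Krt16 did not pass 1.5-fold. Krt16 (chr11:100246091-100248902, minus strand) had 11239 CPM in losartan and 7661 CPM in saline, a ratio of 1.47 (1.46 to 1.48) that was above 1 in each of the 4 Sprr bands. In the class with Krt12 of 10 to 100 per 10000, Krt16 was at 8404 CPM in losartan and 8526 CPM in saline. Krt19 (chr11:100140810-100148665, minus strand) had 717 CPM in losartan and 1964 CPM in saline, 2.74-fold lower (2.68 to 2.8). Ecm1 (chr3:95734147-95739569, minus strand) had 1837 CPM in losartan and 4221 CPM in saline, 2.298-fold lower (2.27 to 2.33). The median cell had 13.0 Ecm1 UMIs per 10000 in losartan (quartiles 5.79 and 25.1) and 32.1 in saline (19.9 and 55.9), so single cells of the libraries overlapped.

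The 10 genes ranked highest in losartan were Csn3, Fabp4, Aldh3a1, Dapl1, Gm2115, Dcn, Nrg1, Xlr4b, Fam25c and Stfa3. Aldh3a1, the aldehyde dehydrogenase that makes up much of the soluble protein of the mouse cornea, had 1624 CPM in losartan and 479.9 CPM in saline, a ratio of 3.38 (3.29 to 3.49), and 11098 CPM in eligible uninjured cells. Dapl1, a gene of early epithelial differentiation, had 42.7 CPM in losartan, 10.6 CPM in saline and 1865 CPM in cells without injury. In losartan Aldh3a1 stood between the saline and the uninjured level, whereas Dapl1 was far below the uninjured level in both injured libraries. The uninjured values cover all 6242 eligible cells, of which 6222 were Sprr-low. Fabp4, a fatty acid-binding protein, had 128 CPM in losartan and 32.3 CPM in saline, with 0.448 CPM in uninjured cells. Stfa3, a stefin that inhibits cysteine proteases, had 149 CPM in losartan and 58.99 CPM in saline.

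Csn3, which encodes a casein, had 36.7 CPM in losartan and 6.596 CPM in saline, and Nrg1 had 87.9 and 29.3 CPM. Xlr4b, Fam25c and Gm2115 had 29.6, 31.8 and 16.1 CPM in losartan, against 7.82, 8.76 and 2.45 CPM in saline. Dcn, a matrix proteoglycan of stromal fibroblasts, had 29.4 CPM in losartan and 7.35 CPM in saline, but 2 losartan cells and 1 saline cell held 50% of its UMIs, and without the cells marked by the doublet score its log2 ratio was 0.145, against 1.48 with them. Of the 7 stromal markers 2 were measured, and all 7 summed to 61.2 CPM in losartan and 12.7 CPM in saline. Most Sprr-high cells of both libraries had little or no Dcn.

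The 10 ranked lowest in losartan were Slpi, Tspan8, Irgm1, Plat, Hilpda, Basp1, Msln, Cxcl5, Ripply3 and Krt18. Irgm1, an interferon-inducible GTPase, had 3.63 CPM in losartan and 34.2 CPM in saline, 9.43-fold lower (7.31 to 12.3), with a UMI in 14.2% and 50.6% of cells. Tspan8, a tetraspanin of secretory and glandular epithelia, had 6.196 CPM in losartan and 53.8 CPM in saline. Plat, the tissue plasminogen activator, had 25.04 CPM in losartan and 119.6 CPM in saline. The surface protein Msln and the transcriptional repressor Ripply3 were 5.65-fold and 5.02-fold lower. In each of these 5 genes 6 to 11 saline cells held 50% of the UMIs.

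Slpi, an inhibitor of neutrophil proteases, had 108 CPM in losartan and 770.1 CPM in saline, but 1 saline cell held 50% of its UMIs. Without the highest cell of each library its log2 ratio was −0.999, against −2.78 with it. Slpi, Basp1 and Hilpda were also abundant in neutrophil barcodes, at 2243, 1615 and 382 CPM in losartan and 4203, 2163 and 995 CPM in saline, above the 770.1, 101 and 107 CPM of saline Sprr-high cells. The part of neutrophil RNA in these 3 genes was not tested.

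**Figure D3:**
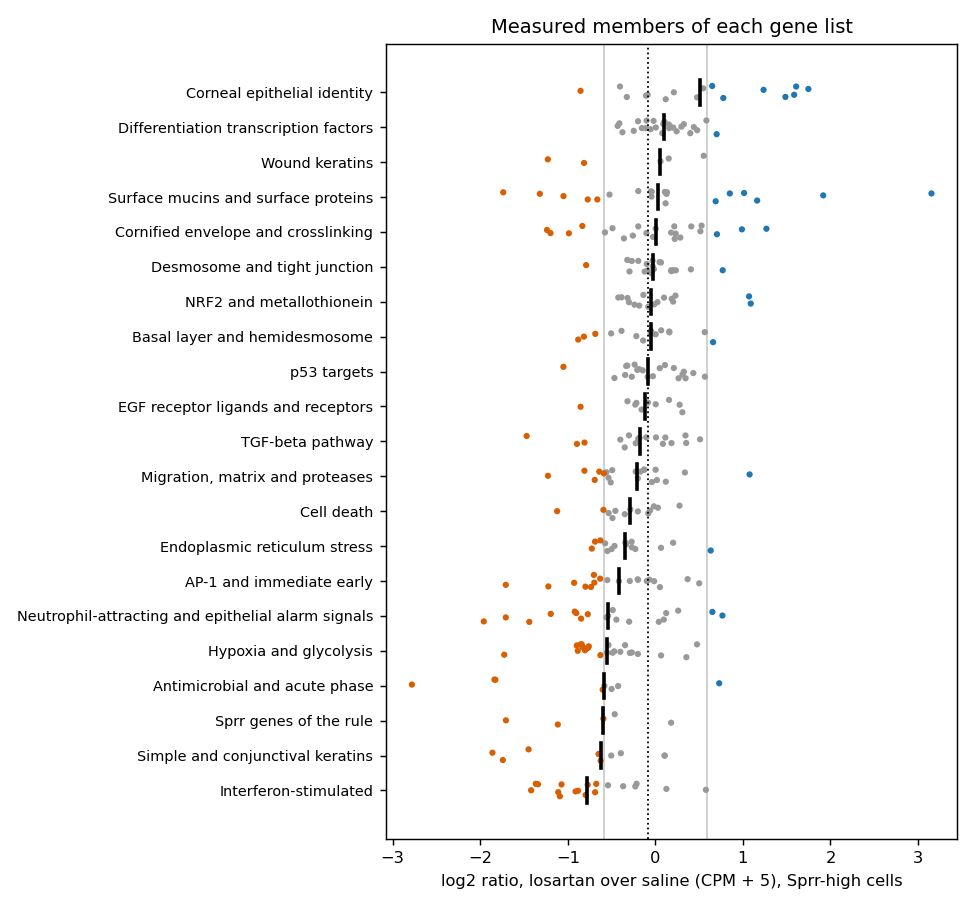
Log2 ratio of losartan to saline Sprr-high cells (CPM + 5) for the measured members of each list with at least 5 of them, 1 point per gene, blue for higher, orange for lower and grey for under 1.5-fold (outer vertical lines), with black bars at the list medians and a dotted line at the median of all genes. The bar of corneal identity genes stands at 0.51 and that of interferon-stimulated genes at −0.78.

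Corneal identity genes were more often higher than lower in losartan. Of 16 measured corneal identity genes 7 were at least 1.5-fold higher in losartan and 1 lower, with a median log2 ratio of 0.51, against 2.18% higher, 5.91% lower and a median of −0.08 over all genes. Krt12 had 18113 CPM in losartan, 6032 CPM in saline and 34832 CPM in eligible uninjured cells, and a UMI in 99.1% of losartan and 80.6% of saline cells. Krt12 is 1 of the 7 higher genes. It is part of the keratin sum that picked the Sprr-high and Sprr-low cells of both libraries, so its level is a description. Cyp4a12b, a cytochrome P450 of fatty acid metabolism, had 14.8 CPM in losartan and 2.07 CPM in saline. The lower gene was Areg, a ligand of the EGF receptor, at 314 CPM in losartan and 572 CPM in saline. In Sprr-low cells 11 of 17 measured corneal identity genes were higher in losartan and 1 lower, against 5.28% and 10.8% of all genes. Their median there was 0.94, so this group differed between the libraries on both sides of the Sprr threshold.

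Of 9 measured simple and conjunctival keratins 5 were lower in losartan and 0 higher, with a median of −0.63. Krt7 had 287 CPM in losartan and 973 CPM in saline (3.39-fold lower, 3.28 to 3.499) and Krt18 had 67.1 and 257 CPM (3.83-fold lower, 3.58 to 4.09). Krt8, the usual partner of Krt18, had 71.3 CPM in losartan and 115 CPM in saline, with a UMI in 17.7% and 39.4% of cells. In uninjured eligible cells Krt7, Krt18 and Krt8 had 3.46, 0.805 and 1.11 CPM. Krt13 was the other lower member, at 1598 CPM in losartan and 2469 CPM in saline, with a mean log2 ratio over the bands of −0.095. Of the 5 wound keratins, Krt17 and Krt75 were lower, with 1293 and 31.7 CPM in losartan against 2278 and 80.9 CPM in saline, while Krt6b was at 6239.5 and 5612 CPM. In Sprr-low cells 4 of the 9 simple and conjunctival keratins were higher in losartan and 4 lower, with a median of 0.52. Among all genes of those cells 5.28% were higher and 10.8% lower.

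Single cells carried the same split. Krt12 reached 100 per 10000 UMIs in 290 losartan cells (63.5%, 58.9 to 67.9) and 38 saline cells (22.4%, 16.3 to 29.4). It stayed under 10 per 10000 in 70 losartan cells (15.3%, 12.1 to 19.0) and 79 saline cells (46.5%, 38.8 to 54.3). Krt19 reached 10 per 10000 in 90 losartan cells (19.7%, 16.1 to 23.6) and 92 saline cells (54.1%, 46.3 to 61.8). Cells with Krt12 under 10 and Krt19 at 10 or more were 30 in losartan (6.56%, 4.47 to 9.24) and 56 in saline (32.9%, 25.9 to 40.6). These limits cut continuous ranges and were set after the data were seen. Within 1.25-fold of 100 lay 42 losartan and 5 saline Sprr-high cells, and within 1.25-fold of 10 lay 6 and 8. Krt12 was split in Sprr-low cells too. There it reached 100 per 10000 in 50.3% of losartan and 10.0% of saline cells, and stayed under 10 in 17.7% and 70.0%. Krt19 reached 10 per 10000 in 5.16% and 10.0% of Sprr-low cells.

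**Figure D4:**
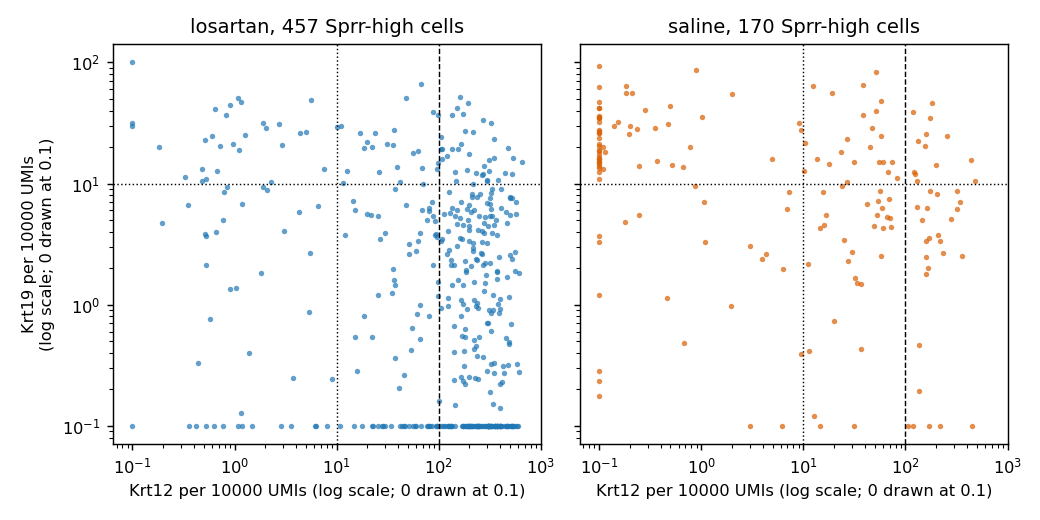
Krt12 (horizontal) against Krt19 (vertical) in each Sprr-high cell, per 10000 UMIs on log axes, with losartan left of saline, cells without a UMI drawn at 0.1 and lines at the limits of 10 and 100. Most losartan cells lie at the right with Krt12 at 100 or more (63.5%), and the saline cells spread to the upper left (32.9% with Krt12 under 10 and Krt19 at 10 or more).

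Some differences followed Krt12 and others did not. In cells with Krt12 at 100 or more, Krt19 had 509 CPM in losartan and 1190.3 CPM in saline, and in cells with Krt12 under 10 it had 1259.7 and 2215 CPM. Ecm1 had 1769 CPM in losartan and 3991 CPM in saline at Krt12 of 100 or more, and 1948 and 4648 CPM under 10. Both genes were lower in losartan in all 3 Krt12 classes. The libraries were not matched for Sprr level within these classes. The median summed Sprr count was 45.6 in losartan and 84.4 in saline at Krt12 of 100 or more. It was 46.6 and 72.5 in the middle class, and 61.2 and 123 under 10. The part of the Sprr level in the gaps within Krt12 classes, here and below, was not tested. Sprr2f had 527 CPM in losartan and 1588 CPM in saline at 100 or more, and 3169 and 4401 CPM under 10, where the gap was under 1.5-fold. Krt17 changed sides, at 648 CPM in losartan and 1582 CPM in saline at 100 or more, and 2992 and 2224 CPM under 10. Aldh3a1 had 2320.1 and 1038 CPM at 100 or more and 372 and 261 CPM under 10, so that its difference was under 1.5-fold (log2 0.51) in the cells low in Krt12. The median of the 16 corneal identity genes was 0.37, 0.19 and 0.039 from the class highest in Krt12 to the lowest. Krt12, on which the classes are cut, is 1 of the 16, so these medians are a description. Krt8 changed sides too, at 78.7 CPM in losartan and 28.6 CPM in saline at 100 or more, and 25.6 and 119 CPM under 10.

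Neutrophil-attracting and alarm signals were lower in losartan in 8 of 19 measured genes and higher in 2, against 5.91% and 2.18% of all genes. Their median was −0.54. Ppbp, the precursor of a neutrophil-attracting chemokine, had 4154 CPM in losartan (4126 to 4183) and 13589 CPM in saline (13519 to 13659), 3.27-fold lower (3.24 to 3.299), against 0.2197 CPM in uninjured eligible cells. The median cell had 12.3 Ppbp UMIs per 10000 in losartan (quartiles 1.27 and 44.7) and 73.5 in saline (31.4 and 156). Cxcl5, another such chemokine, had 47.8 CPM in losartan and 200.2 CPM in saline, and the cytokine Il24 had 34.6 and 102 CPM. Ppbp and Cxcl5 had 94.9 and 7.34 CPM in neutrophil barcodes of losartan and 118 and 4.66 CPM in those of saline, far below the Sprr-high cells. S100a9, a calprotectin subunit and the most abundant neutrophil marker on the list, had 68 CPM in losartan and 162 CPM in saline Sprr-high cells, against 17782 and 17425 CPM in neutrophil barcodes, so epithelial and neutrophil S100a9 cannot be told apart. The 8 neutrophil markers together stood at 112 CPM in losartan and 240.1 CPM in saline Sprr-high cells, and their part in this group was not tested. The group did not keep its direction within Krt12 classes: its median was −1.22, 0.20 and −0.24 from the class highest in Krt12 to the lowest, and 6 of the 19 genes were lower in all 3 classes (31.6%, against 27.9% of all genes). Ppbp was lower in each, with 3452 CPM in losartan and 12793 CPM in saline at Krt12 of 100 or more and 6460.2 and 13753 CPM under 10, whereas Cxcl5 was at 152 CPM in losartan and 179.8 CPM in saline under 10. In Sprr-low cells 6 of 18 measured members of the group were lower in losartan and 4 higher, against 10.8% and 5.28% of all genes. Their median there was 0.005.

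Antimicrobial and acute-phase genes were lower in 4 of 8 and higher in 1, against 5.91% and 2.18% of all genes, with a median of −0.59. Neutrophil markers differed in the same direction in the same cells (112 CPM in losartan and 240.1 CPM in saline), and the part of neutrophil RNA in this group was not tested. Slpi, one of the 4, had 50% of its UMIs in 1 saline cell and 2243 and 4203 CPM in losartan and saline neutrophil barcodes. Ltf, the iron-binding lactotransferrin of tears, mucosa and neutrophil granules, had 31.9 CPM in losartan and 52.6 CPM in saline neutrophil barcodes. In Sprr-high cells Ltf had 152 CPM in losartan and 556 CPM in saline (3.66-fold lower, 3.502 to 3.83). Wfdc2, a secreted protease inhibitor of mucosal epithelium, had 169.9 CPM in losartan and 616 CPM in saline, with a UMI in 78.3% and 85.3% of cells. The higher gene was the defensin Defb14, at 33.6 CPM in losartan and 18.3 CPM in saline, where 4 cells of each library held 50% of its UMIs. In Sprr-low cells 3 of 7 measured members of the group were lower in losartan and 2 higher, against 10.8% and 5.28% of all genes. Their median there was −0.57, near that of Sprr-high cells.

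Interferon-stimulated genes were lower in losartan in 12 of 18 measured members and higher in 0, against 5.91% and 2.18% of all genes. Their median was −0.78. Irf1, a transcription factor that interferons induce, had 84.7 CPM in losartan (80.7 to 88.9) and 189 CPM in saline (180.4 to 197), 2.23-fold lower (2.08 to 2.38). Stat2, a transcription factor that interferons activate, had 9.52 CPM in losartan and 33.8 CPM in saline. Isg15, a ubiquitin-like modifier, had 39.8 and 111 CPM. The UMIs were spread over many cells, since 56 losartan and 20 saline cells held 50% of Irf1.

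The lower level of interferon genes was seen along the Sprr range and in each Krt12 class. Across Sprr bands from 20 to 50 up to over 200 per 10000, Irf1 ran 75.8, 85.1, 104 and 107 CPM in losartan and 93.1, 186, 212 and 298 CPM in saline. Of the 18 genes 14 were lower in losartan in all 4 bands (77.8%), against 32.4% of all measured genes, and 14 were lower in all 3 Krt12 classes (77.8%), against 27.9% of all. In Sprr-low cells of the same libraries 3 of 17 were lower and 3 higher, with a median of −0.09, where 10.8% of all 8242 measured genes were lower and 5.28% higher. Irf1 had 70.3 CPM in losartan and 41.9 CPM in saline Sprr-low cells, and Isg15 had 32.5 and 32.1 CPM. Whether the difference between the libraries itself differs between Sprr-high and Sprr-low cells was not tested. In neutrophil barcodes Irf1 had 121 CPM in losartan and 249.8 CPM in saline, Isg15 203 and 314 CPM. With cells holding 2 or more leukocyte UMIs left out, the log2 ratio of Irf1 was −1.01, against −1.11 with them, and that of Isg15 was −1.01, against −1.37.

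Hypoxia and glycolysis genes were lower in losartan in 11 of 23 members and higher in 0, against 5.91% and 2.18% of all genes. Their median was −0.55. Ndufa4l2, a mitochondrial protein induced under low oxygen, had 16.4 CPM in losartan and 65.9 CPM in saline. Ero1l, an oxidase of the endoplasmic reticulum, had 45.5 and 86.4 CPM, Vegfa, the endothelial growth factor, 10.1 and 23.1 CPM, and the collagen prolyl hydroxylase subunit P4ha2 12.7 and 27.8 CPM. Of the 23 genes 18 were lower in all 4 Sprr bands (78.3%, against 32.4% of all genes) and 13 in all 3 Krt12 classes (56.5%, against 27.9%). The list was lower in Sprr-low cells too, with 17 of 24 lower and 1 higher, against 10.8% and 5.28% of all genes, a median of −0.91, and Vegfa at 17.5 CPM in losartan and 42.99 CPM in saline. This group thus differed between the libraries across the Sprr threshold.

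**Figure D5:**
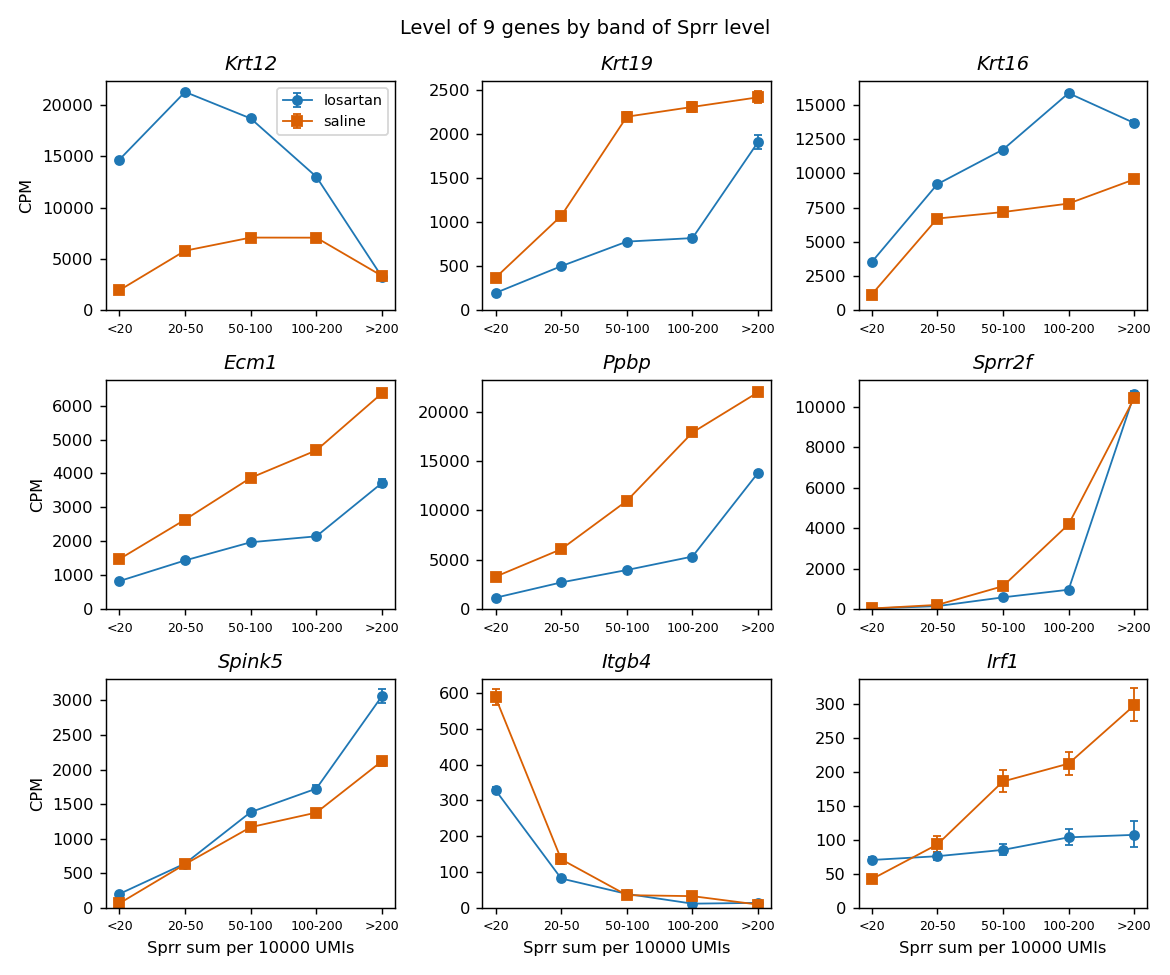
Level of 9 genes (CPM, linear axis from 0) against the summed Sprr count per 10000 UMIs, with Sprr-low cells as the lowest of 5 bands, losartan as blue circles, saline as orange squares and bars for the 95% counting interval. Ecm1, Ppbp and Krt19 climbed with the Sprr count in both libraries and stayed lower in losartan in every band, and Irf1 was lower in losartan in the 4 Sprr-high bands.

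The markers moved along the Sprr range in both libraries. From 20 to 50 up to over 200 per 10000, Ecm1 ran 1433, 1969, 2144 and 3719.7 CPM in losartan and 2637, 3872, 4683 and 6369.6 CPM in saline. Ppbp ran 2689.8, 3949.7, 5316 and 13823 CPM in losartan and 6063, 10969, 17908 and 21994 CPM in saline. Krt19 ran 499.9, 779, 819.5 and 1912 CPM in losartan and 1072, 2199, 2310.5 and 2419.8 CPM in saline. All 3 stood higher in cells with more Sprr and lower in losartan at each step. Krt12 ran the other way in losartan, at 21262, 18678, 12997 and 3241 CPM, against 5792, 7073, 7063 and 3336 CPM in saline, so that the libraries met in the cells highest in Sprr. The bands held 241, 128, 67 and 21 losartan cells and 47, 45, 46 and 32 saline cells.

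Of 23 measured cornified envelope genes other than the Sprr family 3 were higher and 4 lower in losartan, against 2.18% and 5.91% of all genes, with a median of 0.00. Of the 23, 9 were higher in all 4 Sprr bands (39.1%, against 8.67% of all genes) and 4 lower (17.4%, against 32.4%), and 9 were higher in all 3 Krt12 classes (39.1%, against 20.7%) and 5 lower (21.7%, against 27.9%). Ivl, the envelope precursor involucrin, had 21.9 CPM in losartan and 58.3 CPM in saline, and Stfa2 had 13.9 and 4.52 CPM. Surface mucins and surface proteins were higher in 6 and lower in 5 of 20, against 2.18% and 5.91% of all genes. Psca, a lipid-anchored surface protein, had 693 CPM in losartan and 2322 CPM in saline (3.35-fold lower, 3.28 to 3.42). Its UMIs were unevenly spread over the cells. Scaled like the summed Sprr count, the median cell had 0.142 Psca UMIs in losartan (upper quartile 2.20, highest 260). In saline the median cell had 0.356 (upper quartile 6.88, highest 373). The membrane mucin Muc1 had 24.5 CPM in losartan and 68.6 CPM in saline. Slurp1 and Lypd2, secreted and lipid-anchored Ly6 proteins of the resting cornea, had 59.6 and 15.3 CPM in losartan, against 2.26 and 0.377 CPM in saline and 5115 and 6925 CPM in uninjured cells. In both injured libraries Slurp1 and Lypd2 were therefore near the bottom of their range, and 6 losartan and 2 saline cells held 50% of Slurp1.

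Basal layer genes gave different pictures with different groupings of the Sprr-high cells. Of 16 measured members 1 was higher and 3 lower in losartan, against 2.18% and 5.91% of all genes, with a median of −0.05. In all 4 Sprr bands 8 of the 16 were lower (50%, against 32.4% of all genes) and 0 higher, whereas in all 3 Krt12 classes 7 were higher (43.8%, against 20.7%) and 3 lower (18.8%, against 27.9%). Krt5 had 5668 CPM in losartan and 5856 CPM in saline, and Krt14 14136 and 16435 CPM. The lower genes were the integrin Itgb1 (78.1 CPM in losartan and 148 CPM in saline), the tetraspanin Cd151 (37.9 and 70.5 CPM) and the laminin subunit Lamb3 (17.03 and 30.4 CPM). Igfbp5 was higher, at 11.1 and 5.18 CPM, with 2 cells of each library holding 50% of it. In Sprr-low cells 11 of 16 were lower in losartan, against 10.8% of all genes.

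AP-1 and immediate early genes were lower in losartan in 8 of 19 members and higher in 0, against 5.91% and 2.18% of all genes. Their median was −0.42. Of the 8 lower genes Fos and Atf3 belong to the AP-1 family, and the others are Egr1, Ier2, Zfp36, Dusp1, Btg2 and Gadd45b. Egr1 had 27.7 CPM in losartan and 102 CPM in saline, Zfp36, which destabilises cytokine mRNAs, 221 and 523 CPM, and Fos, an AP-1 subunit, 328 and 628 CPM. Gadd45b had 101 and 179 CPM. In all 3 Krt12 classes 12 of the 19 genes were lower (63.2%, against 27.9% of all genes), and in Sprr-low cells 5 were higher and 0 lower, against 5.28% and 10.8% of all genes. Of the 19 genes 11 were lower in losartan in all 4 Sprr bands (57.9%, against 32.4% of all genes) and 2 higher (10.5%, against 8.67%). Fos, Atf3, Jun, Junb, Fosb and Maff were lower in all 4, with Jun at −0.694 to −0.528 and Junb at −0.419 to −0.007 (log2). The AP-1 genes Fosl1 and Fosl2 were higher in all 4, by 0.197 to 0.63 and by 0.145 to 0.69. Jund was higher in 2 bands and lower in 2. Jun, Junb, Fosb, Maff, Fosl1, Fosl2 and Jund were named after their values were seen. Differentiation transcription factors were higher in 1 of 27 and lower in 0, against 2.18% and 5.91% of all genes. The higher gene was Hopx, at 845 CPM in losartan and 518 CPM in saline. Prdm1, Foxq1 and Notch1 stood at 0.58, 0.48 and 0.44 (log2), under 1.5-fold.

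Losartan acts through the renin-angiotensin system, and its receptor genes were scarcely detected in Sprr-high cells. Of 15 listed genes 3 were measured and none passed 1.5-fold: Ctsd had 404 CPM in losartan and 494 CPM in saline, Lnpep 37.6 and 31 CPM and Atp6ap2 101 and 87.5 CPM. Agtr1a, the receptor that losartan blocks in mice together with Agtr1b, had 1 UMI in losartan and 0 in saline Sprr-high cells, and Agtr1b had 0 in both. A count of this size cannot show the presence or absence of the receptor at this depth.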

How the data were processed

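The deposited values are raw UMI counts per gene and barcode, 1 matrix of 32285 genes for each library. Per the file headers the authors made them with Cell Ranger 8.0.0, and the submitters' processing notes name the GRCm38 build. Annotation release, intron counting and any earlier doublet removal are not given in the sources used here. Counts were summed over the cells of a group and divided by the group total (CPM). CPM carries exact Poisson, ratios exact conditional binomial and shares Clopper-Pearson 95% intervals, all for counting error only. Genes with at least 10 CPM on 1 side were measured, and a gene counted as higher or lower at 1.5-fold on CPM + 5. There is 1 library per group, so no p-value was computed. Log2 ratios used CPM + 5, ratios and folds did not.

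The named genes are the 10 highest and 10 lowest by log2 ratio with a UMI in at least 25% of cells on the higher side, the rule's own genes left out, the 8 highest and lowest of Sprr-high against Sprr-low cells, up to 4 per list for 23 gene lists, and the 5 Sprr genes and label markers; other genes were named after their values were seen. Members, lists and rules were chosen with earlier results of these data known. Doublets were scored per library against simulated doublets at 0.8% per 1000 barcodes (277 of 5162 scored losartan and 371 of 6134 saline barcodes), and were left in. Neutrophil barcodes had at least 4 of 8 markers and 500 to 5000 UMIs. Positions come from GENCODE M21 and upstream sequences from RefSeq on GRCm38.p6, matched by symbol for all 5 genes. Alternatives changed 1 threshold, filter, scaling or weighting at a time. The comparison was tested on simulated data. Python 3.11.15, numpy 2.4.6, scipy 1.17.1, pandas 2.3.3, scikit-learn 1.9.0 and matplotlib 3.10.9 were used. Some genes that the rule names are not reported here.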

Additional observations from a re-analysis of the deposited data

Results flagged for a closer look

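A few genes differed in opposite directions. Each direction comes from 1 library or 1 group of cells, and the difference between the directions was not tested.

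Sprr-high cells stood on opposite sides of Sprr-low cells in the 2 injured libraries for 3 genes past 1.5-fold. Pde4b, a phosphodiesterase that breaks down cyclic AMP, differed by −0.72 (log2) in losartan and 1.01 in saline, with 25.8 CPM in Sprr-high and 45.8 CPM in Sprr-low cells of losartan and 34.8 and 14.8 CPM in those of saline. Wfdc18, a secreted protein with a protease inhibitor fold, differed by −0.74 in losartan and 1.37 in saline. Prl2c3, a placental prolactin relative with near-identical copies that make its counts uncertain, differed by −1.42 in losartan and 0.87 in saline.

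Losartan stood on opposite sides of saline in Sprr-high and Sprr-low cells for 10 genes past 1.5-fold, of which the 6 named by the rule for genes follow. Psca differed by −1.74 (log2) in Sprr-high and 0.64 in Sprr-low cells, with 693 CPM in losartan and 2322 CPM in saline Sprr-high cells and 185 and 117 CPM in Sprr-low cells. The median Sprr-high cell had little Psca in both libraries, as given above. Irf1 differed by −1.11 in Sprr-high and 0.68 in Sprr-low cells, and the stress gene Gadd45b by −0.80 and 0.67. Krt75, a keratin of hair follicles and nails, differed by −1.23 and 1.48, and the metalloproteinase inhibitor Timp3 by −0.69 and 0.65. Stfa2 differed by 0.99 in Sprr-high and −0.81 in Sprr-low cells. The saline Sprr-low group held 90 cells, the smallest of the 4 groups.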

How the results depend on the processing

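Each library is 1 mouse, and the saline comparison rests on 170 Sprr-high cells. The main counts were 155 genes higher and 420 lower in losartan Sprr-high cells, and 419 higher and 1703 lower in Sprr-high than in Sprr-low cells. Thinned to 5000 UMIs per cell they were 448 higher and 937 lower. Cells of 20000 to 60000 UMIs gave 1072 lower. Keratin sums of at least 200 gave 253 genes higher in Sprr-high than in Sprr-low cells, and median-of-ratios scaling gave 756 higher and 913 lower. Settings added after seeing the data gave 278 higher at Krt12 of 100 or more per 10000, and 314 higher and 631 lower at Krt12 under 10.

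The share of Sprr-high cells was 45.7% in losartan and 65.4% in saline. It was 59.2% and 73.8% at a Sprr threshold of 10, 27.1% and 52.3% at 40, 52.5% and 80.4% at a keratin sum of at least 200, and 33.5% and 33.8% of all keratin cells (added after seeing the data).

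Of the 84 named genes past 1.5-fold, 84 kept their sign in each planned setting but 2. Lamb3 turned to 0.039 (log2) at a keratin sum of 200, and Sprr2d and Sprr2h turned to 0.044 and 0.068 in the mean of the Sprr bands. At Krt12 of 100 or more, Slpi (0.12), Krt8 (1.31), Lamb3 (0.17), Igfbp5 (−1.19), Ndufa4l2 (0.32) and Id2 (0.13) turned. At Krt12 under 10, Csn3 (−0.12), Xlr4b (−0.48), Ly6g6c (−0.26), Krt13 (0.41), Klk10 (0.13), Sprr2d (0.13), Sprr2h (0.52), Krt17 (0.43), Slurp1 (−0.28), Mmp10 (−0.21) and Dnajb9 (−0.11) turned. The cause was not tested. No paired analysis was possible because each group is 1 library.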

Other observations

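Further gene groups were measured in losartan and saline Sprr-high cells. Each count here and in the next paragraph stands against 2.18% higher and 5.91% lower in losartan among all 7102 measured genes. Of 21 measured p53 targets 0 were higher and 1 was lower in losartan (median −0.09, log2): Gdf15, a secreted stress protein, had 12.3 CPM in losartan and 30.9 CPM in saline, with 50% of its UMIs in 5 and 3 cells. Dcxr, Plk2 and Bbc3 stood at 0.57, −0.47 and 0.43. Against Sprr-low cells, 11 of 23 p53 targets were lower in both libraries, where 22.5% of all measured genes were. Of 10 EGF receptor ligands and receptors 1 was lower (Areg, above), with Tgfa, Erbb3 and Errfi1 at −0.32, 0.31 and 0.28. Of 20 desmosome and tight junction genes 1 was higher (Dsg1a, 45.4 CPM in losartan and 24.6 CPM in saline) and 1 lower (Dsg2, 51.4 and 92.6 CPM), while Dsc3 and Cdh1 stood at 0.41 and −0.32. Of 13 cell death genes 2 were lower, the inflammatory caspase Casp4 (4.18 CPM in losartan and 14.98 CPM in saline) and the pore former Bak1 (36.7 and 57.9 CPM), and Bcl2 stood at −0.53.

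Of 16 NRF2 and metallothionein genes 2 were higher in losartan, the metal-binding proteins Mt1 (516 CPM in losartan and 239.7 CPM in saline) and Mt2 (223 and 103 CPM), with Srxn1 and Nqo1 at −0.42 and −0.39. Of 17 TGF-beta pathway genes 3 were lower and 0 higher, all 3 inhibitors of DNA binding that BMP signals induce: Id1 (144 CPM in losartan and 408 CPM in saline), Id2 (70.8 and 128 CPM) and Id3 (25.6 and 52.02 CPM), while Tgfbi stood at 0.51. Of 15 endoplasmic reticulum stress genes 1 was higher, the chaperone Dnajb9 (69.1 CPM in losartan and 42.8 CPM in saline), and 3 lower, Calr (445 and 739 CPM), Creld2 (32.3 and 55.2 CPM) and Pdia4 (59.7 and 94.99 CPM). Of 20 migration, matrix and protease genes 1 was higher (Mmp10, 27.4 CPM in losartan and 10.4 CPM in saline) and 5 were lower, with Ccn2 at 12.2 and 35.2 CPM, Plau at 8.01 and 17.8 CPM and Timp3 at 5.44 and 11.9 CPM. Arg1, listed as a macrophage marker, had 1815 CPM in losartan and 3029.5 CPM in saline Sprr-high cells and a UMI in 94.97% and 97.6% of them, while Csf1r, a defining macrophage marker, had 9 UMIs in losartan and 0 in saline.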
